A study of Mus musculus with 4 samples.

Results

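The genes described here are *Dner*, *Dlk1*, *Dlk2*, the Notch ligands *Jag1*, *Jag2*, *Dll1* and *Dll4* and the receptors *Notch1*, *Notch2* and *Notch3*, followed through the cell types of the fetal mouse penis with and without the descendants of cells that switched on *Nr5a1-Cre*. These 10 genes were named with results of this comparison known, and all 10 were among the 32287 features of the count tables. Their level in each genotype and cell type is therefore given as a description and without a test, while 38 other genes of the pathway, listed by function, were tested. Penises of male embryos at embryonic day 16.5 were dissociated and read by droplet single-cell RNA sequencing (10x Genomics), with 2 libraries from DTA- controls (labelled WT) and 2 from DTA+ embryos.

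By the study's methods both groups carried a floxed diphtheria toxin allele at *Rosa* (*RosaDTA*, +/f), and the *Nr5a1-Cre* transgene was present only in the DTA+ group, where Cre activity lets a cell make the toxin. By the study's account most but not all of the targeted penile cells were removed. The sires of the cross also carried *Rosa-LSL-tdTomato*. The same Cre acts in the testes, the source of fetal androgen, and in the adrenal glands, and by the study's methods both organs were hit in the ablated embryos. Effects of the missing penile cells and of those losses cannot be told apart in these libraries, whose labels name no hormone treatment. Nothing in the labels ties a library to a single embryo, and p-values measure only the spread between these libraries.

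After the cell limits 31132 of 47040 cells were kept, between 6573 and 8810 a library, with a median of 3551 to 4700 unique molecular identifiers (UMIs) per cell, and pairs of libraries shared 31 to 48 cell barcodes. The cells fell into 27 clusters, of which marker genes named 20, forming 14 "-like" populations, and 7 stayed unnamed. The transcripts of each population were summed per library and are given relative to all UMIs of that population (CPM, the usual scaled unit), a level that can be compared between libraries and populations for a gene but not between genes. A population entered the comparison of genotypes when every library held at least 20 of its cells, which was so for 17 of them, 12 named and 5 unnamed. Some clusters held mainly a single genotype: cluster 11 (subdermal prepuce-like) had 256 and 836 DTA- cells against 20 and 8 DTA+ cells, cluster 12 had 90 and 11 against 289 and 649, cluster 16 had 1 and 5 against 509 and 272, and cluster 21 (smooth muscle-like) had 130 and 191 against 30 and 10. For these the levels are given without a fold change.

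As background, Notch signalling passes between touching cells: a Delta or Jagged ligand on a cell pulls on a Notch receptor of its neighbour, the receptor is cut by ADAM metalloproteases and γ-secretase, and the freed intracellular domain joins the DNA-binding protein RBPJ and a Mastermind coactivator (MAML) to switch on targets such as *Hes1*, *Hey1*, *Heyl* and *Nrarp*. *Dner* and the *Dlk* genes encode membrane proteins with EGF-like repeats that resemble the ligands but lack the DSL domain by which the canonical ligands bind. *Dner* is best known from neurons, and *Dlk1*, an imprinted gene read from the paternal copy, from fetal mesenchyme and from cells that have not yet become fat. In vessels DLL4 and JAG ligands of the endothelium and NOTCH3 of the surrounding mural cells are a well known combination.

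*Dner* lies on the minus strand of chromosome 1 (84369839 to 84696221, GRCm38, GENCODE M21) and *Dlk1* on the plus strand of chromosome 12 (109452823 to 109463336). The 250 bases before the start of *Dner*, the gene with the largest fitted difference between genotypes of the 10, are shown beside those of *Hes5*, which had most matches to the RBPJ motif among the listed genes with a sequence on hand, both 5′ to 3′ on the gene's own strand from RefSeq (GRCm38.p6). Capitals mark the letters GTGGGAA or, read from the other strand, TTCCCAC.
Dner, chr1:84696222-84696471, minus strand: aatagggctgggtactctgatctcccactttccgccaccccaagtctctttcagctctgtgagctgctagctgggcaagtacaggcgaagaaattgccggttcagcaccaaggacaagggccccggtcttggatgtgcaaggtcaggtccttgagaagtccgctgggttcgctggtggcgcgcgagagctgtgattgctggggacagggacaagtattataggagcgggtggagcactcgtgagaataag
Hes5, chr4:154960673-154960922, plus strand: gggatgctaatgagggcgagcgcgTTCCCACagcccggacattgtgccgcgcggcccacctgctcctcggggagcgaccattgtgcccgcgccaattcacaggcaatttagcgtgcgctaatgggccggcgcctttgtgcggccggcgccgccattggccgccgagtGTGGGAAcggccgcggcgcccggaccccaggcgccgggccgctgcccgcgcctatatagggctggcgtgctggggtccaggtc
The *Hes5* stretch held the letters at -226 and -83, counted from the first base of the gene, and the *Dner* stretch had no match. Of 32851 such stretches over the genome 5.42% held the motif on either strand. A second motif, GGGTGGTC of the Hedgehog effectors GLI (other strand GACCACCC), was found in 0.703% of them. Sequences were on hand for 39 of the 48 genes, and neither motif was found before any of the 10 genes. Both motifs were chosen after the expression values had been seen, and a missing match says only that these letters are not in this window.

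Each of the 10 genes had its own distribution over the control penis. The order of the DTA- means put *Dner* highest in the periurethra-like and then the distal glans-like mesenchyme, *Dlk1* in the unnamed cluster 12 and then the subdermal prepuce-like cells, *Jag1* in the unnamed cluster 13, *Notch3* in pericyte-like cells, and *Jag2*, *Dll1*, *Dll4* and *Notch1* in endothelium-like cells. *Dlk2* was highest in epithelium-like cells and *Notch2* in corpus cavernosum-like cells. The leading population stood clear of the next, with no overlap of the DTA- libraries, for *Dner*, *Dlk2*, *Jag1*, *Dll4* and *Notch3*. For *Dner* this holds for the pooled populations only, since clusters 15 and 7 of the distal glans-like cells overlapped with the periurethra-like cells. The leading population overlapped with the next for *Dlk1*, *Jag2*, *Dll1*, *Notch1* and *Notch2*. The map of levels by population and genotype shows these columns side by side.

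**Figure D1:**
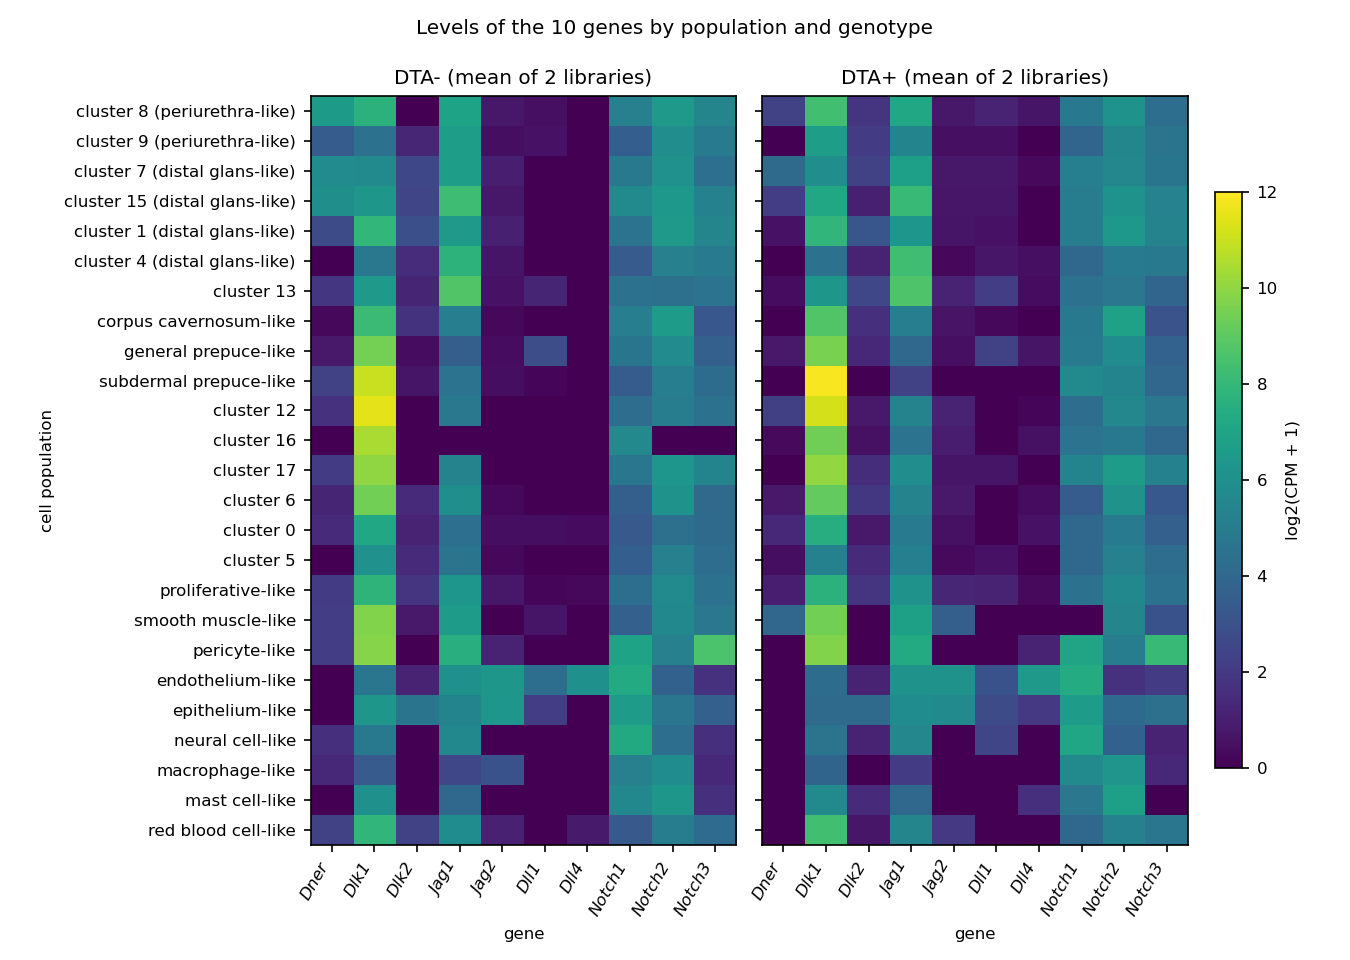
Level of the 10 genes (columns) in each cell population (rows), as log2(CPM + 1) of the mean of the 2 libraries of each genotype, DTA- left and DTA+ right. The *Dner* column is bright in clusters 8, 15 and 7 of the DTA- panel, where the means are 92.7, 62.1 and 54.5 CPM, and darker in the DTA+ panel, where they are 4.18, 3.55 and 16.6 CPM.

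Over the 17 populations the 10 genes gave 78 gene-population pairs that passed the filter on low counts, of 170 possible. The filter kept *Notch1* in 16 populations, *Jag1* in 15, *Dlk1* and *Notch2* in 14 each, *Notch3* in 12, *Dner* and *Jag2* in 2 each and *Dlk2*, *Dll1* and *Dll4* in 1 each. Of those pairs 4 lay past an adjusted p of 0.05 in edgeR's quasi-likelihood fit, 1 higher and 3 lower in DTA+, beside 3.48% of the pairs of all genes. Because the genes were picked from this contrast, nothing is read from that number, and no p is given for them.

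*Dner* was highest in the periurethra-like mesenchyme and in parts of the distal glans-like mesenchyme, and in both places its level was lower in both DTA+ libraries. The whole data held 229 and 335 *Dner* UMIs in the DTA- libraries and 34 and 87 in the DTA+ libraries. In the periurethra-like cells the level was 36.8 and 73.4 CPM in the DTA- libraries and 1.57 and 2.12 CPM in the DTA+ libraries. The groups did not overlap, and the mean was 29.8 times higher in controls, a log2 fold change of -4.84 ± 0.46 SE. The DTA+ levels rested on 3 and 7 UMIs, and DTA+ replicate 1 lay at a floor of 3 counts (1.57 CPM). *Dner* can have passed the filter on low counts there only through the DTA- libraries. The size of this difference is therefore approximate. In the distal glans-like cells *Dner* stood at 12.6 and 29.95 CPM in the DTA- libraries and 3.44 and 5.97 CPM in the DTA+ libraries, with a log2 fold change of -2.06 ± 0.37 SE, or -1.38 without DTA- replicate 2. The library DTA- replicate 2 had the higher *Dner* level of the controls in both.

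Within these populations the signal was uneven. The periurethra-like cells were made of cluster 8, which carried the Hedgehog-pathway markers *Hhip*, *Gli1* and *Ptch1*, and cluster 9, with *Foxl2* and *Sall3* among its leading genes. Cluster 8 alone held 250 of the 564 DTA- UMIs of *Dner* (44.3%) and 10 of the 121 DTA+ UMIs (8.26%). Its level was 63.3 and 122 CPM in the DTA- libraries and 4.23 and 4.14 CPM in the DTA+ libraries (3.76% of all genes there were called, log2 fold change -4.46 ± 0.41 SE). These DTA+ levels rested on 3 and 7 UMIs, and *Dner* can have passed the filter there only through the DTA- libraries, so that size is approximate. Cluster 9 held 6 and 16 *Dner* UMIs in the DTA- libraries, or 4.52 and 15.6 CPM, and none in the DTA+ libraries. A floor of 3 counts per library was 2.50 and 1.87 CPM in the DTA+ libraries there, and the DTA- mean of 10.1 CPM was 4.62 times the mean floor. That ratio takes the DTA- mean as exact although it rests on few UMIs, so it is no lower limit. DTA- replicate 1, at 4.52 CPM, lay much nearer the floor. Of all genes 2.98% were called in cluster 9. Among the distal glans-like clusters, cluster 15 (with *Hand2* and *Dlx5*) had 39.7 and 84.4 against 1.31 and 5.79 CPM and cluster 7 (*Cpm*, *Dlx5*) had 30.5 and 78.5 against 14.2 and 19.03 CPM, DTA- before DTA+. The log2 fold changes were -3.94 ± 0.51 SE and -1.48 ± 0.36 SE. In cluster 15 the DTA+ levels rested on 1 and 7 UMIs. DTA+ replicate 1 lay below a floor of 3 counts there (3.94 CPM), so the size in cluster 15 is approximate. In cluster 15 too *Dner* can have passed the filter only through the DTA- libraries. Cluster 7 held 59 *Dner* UMIs in DTA+, 48.8% of all *Dner* UMIs of that genotype, and whether its fold change differs from that of clusters 8 and 15 was not tested. Cluster 1 (*Msx2*, *Inhba*) had 6.67 and 5.05 against 0 and 0.996 CPM, and cluster 4 (*Tac1*, *Tfap2c*) had no *Dner* UMI in any library.

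**Figure D2:**
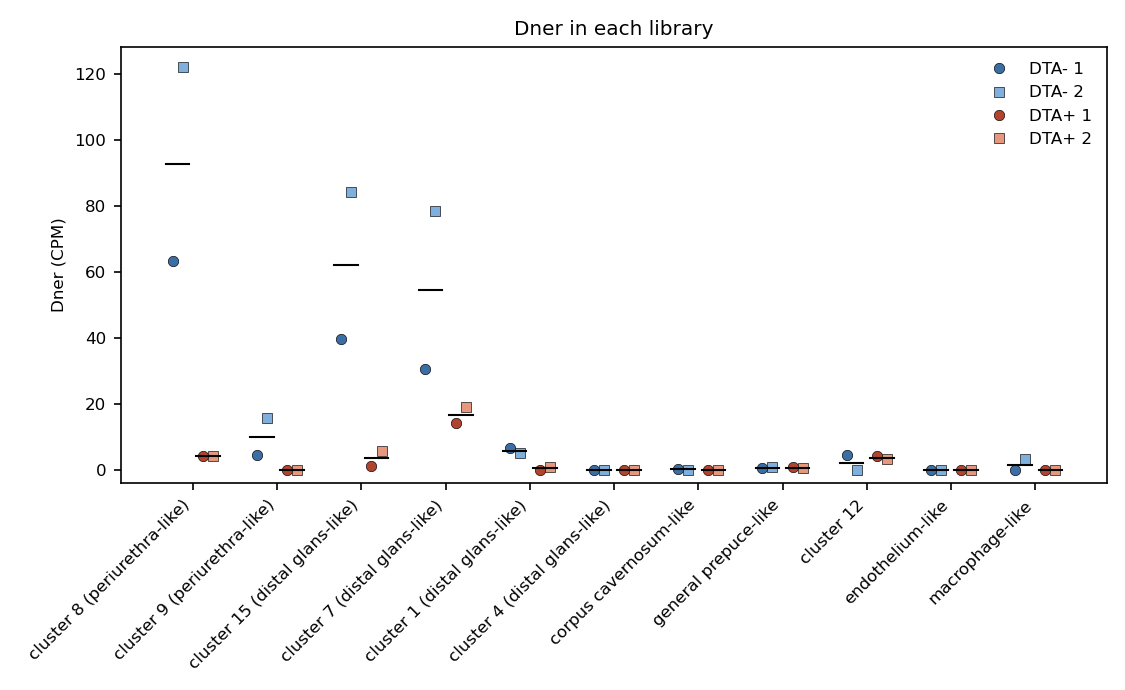
*Dner* level (CPM, linear axis from 0) in each library for 11 cell populations, DTA- in blue and DTA+ in red, circles for replicate 1 and squares for replicate 2, with a bar at the mean of each genotype. In clusters 8, 15 and 7 both DTA- points lie above both DTA+ points, from 30.5 to 122 CPM against 1.31 to 19.03 CPM, and the populations from cluster 1 rightwards lie at 6.67 CPM or below.

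Counted by cells, a *Dner* UMI was seen in 66 of 330 (95% interval 15.8 to 24.7%) and 30.9% (95% interval 25.7 to 36.6%) of the cluster 8 cells of the DTA- libraries and in 1.41% (95% interval 0.291 to 4.06%) and 1.12% (95% interval 0.365 to 2.60%) of those of the DTA+ libraries. These exact binomial intervals cover counting error only. The median depth of those cells was 4897 and 4044 UMIs in DTA- and 3125 and 3735.5 in DTA+. After thinning every cell to 1000 UMIs the shares were 8.48% and 10.7% against 0.469% and 0.448%, and the groups did not overlap at equal depth either. Endothelium-like cells, at median depths of 2562.5 to 4347 UMIs, had no *Dner* UMI in any library, and macrophage-like cells, at 5152 to 5760 UMIs, had a single such cell. In cluster 9 of the DTA+ libraries 0 of 315 and 0 of 428 cells had a *Dner* UMI, which allows shares of cells with a UMI of up to 0.952% and 0.701% by a limit of 3 cells, or 1.16% and 0.858% by the exact interval.

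Among the 7 markers of the periurethra-like cells, *Foxl2*, a forkhead factor, rose (log2 fold change 2.82, SE 0.51, edgeR adjusted p = 0.014), and *Foxf1*, *Foxf2*, *Ptch1*, *Gli1*, *Hhip* and *Sall3* did not pass the test. Their summed level was 723 and 806 CPM in the DTA- libraries and 610.2 and 881 CPM in the DTA+ libraries, an overlap of the genotypes. Of the distal glans and corpus cavernosum markers, *Tac1* (log2 fold change 2.83) and *Inhba* (1.77) rose in the periurethra-like cells and *Sox9* (-1.29) fell. Their edgeR adjusted p ran from 6.5e-05 to 0.014. Apart from *Matn4*, the other markers of these lists did not pass or were not fitted. *Matn4* was at 1.70 and 0.448 CPM in DTA- and 17.3 and 7.27 CPM in DTA+. Its level in DTA- replicate 2 lay below a floor of 3 counts (1.34 CPM). *Matn4* can have passed the filter on low counts only through the DTA+ libraries, so nothing is read from its call. In cluster 8 the Hedgehog target *Hhip* was at 150.2 and 172 CPM in DTA- and 81.7 and 140.1 CPM in DTA+ (adjusted p = 0.27). There *Inhba* (log2 fold change 1.65) rose, and *Msx1* (-0.87) and *Sox9* (-1.07) fell (edgeR adjusted p 0.00031 to 0.037). *Tac1* was at 1.24 and 1.65 CPM in DTA- and 46.5 and 21.3 CPM in DTA+. A floor of 3 counts was 1.86 and 2.48 CPM in the DTA- libraries, above both of their values. *Tac1* can have passed the filter only through the DTA+ libraries, so nothing is read from its call. Of the 16 marker lists, 4 were lower and 4 higher in both DTA+ libraries of cluster 8. The 8 corpus cavernosum markers, of which 1 was at 0 in every library, summed to 104 and 102 CPM in DTA- and 69.0 and 69.2 CPM in DTA+. The 8 red blood cell markers, of which 2 were at 0 in every library, summed to 5123 and 3891 CPM in the DTA- libraries and 570.4 and 482 CPM in the DTA+ libraries, the 6 general prepuce markers to 674 and 718 CPM in the DTA- libraries and 1069 and 941 CPM in the DTA+ libraries, and the 8 endothelium markers to 22.3 and 9.08 CPM in the DTA- libraries and 43.7 and 37.8 CPM in the DTA+ libraries. *Dner* itself was at 0 in endothelium-like cells and at 0.525 to 0.982 CPM in general prepuce-like cells, and the part of these markers in the result was not tested.

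The genes whose DTA- level followed that of *Dner* most closely over the 17 populations were Tceal6 (r = 0.92), 3100003L05Rik (r = 0.87), Orm1 (r = 0.86), Pnoc (r = 0.85) and Hhip (r = 0.84). These are Pearson correlations of log2(CPM + 10) among 10265 genes that reached 20 CPM in at least 1 population, given as a description, since the populations come from the same libraries and differ in depth. All 5 had their highest DTA- mean in the periurethra-like cells. The highest population mean of each, DTA- before DTA+, was 35.99 and 50.02 CPM for *Tceal6*, 24.1 and 31.7 CPM for *3100003L05Rik*, 27.4 and 10.6 CPM for *Orm1*, 27.01 and 94.1 CPM for *Pnoc*, a neuropeptide precursor, and 92.97 and 70.7 CPM for *Hhip*.

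*Dlk1* was, by UMIs, the most counted of the 10 genes, with 28711 UMIs in DTA- and 28640 in DTA+, and its level over all cells was 394 and 505 CPM in the DTA- libraries and 441 and 459 CPM in the DTA+ libraries (log2 fold change -0.07 ± 0.13 SE). The groups overlapped. In the DTA- libraries the means were 2891 ± 1236 CPM (SD, n = 2) in cluster 12, 2044 ± 158 CPM in the subdermal prepuce-like cluster 11, 1447 ± 255 CPM in cluster 16, 1038 ± 318 CPM in cluster 17 and 910.2 ± 88.1 CPM in pericyte-like cells. General prepuce-like cells followed at 714 ± 11.3 CPM and cluster 6, led by *Thbd* and *Ptgis*, at 704 ± 54.7 CPM. Smooth muscle-like cells, at 842 ± 328 CPM, stood between the pericytes and the general prepuce, and from cluster 17 down to cluster 6 each population overlapped with the next. The cluster 16 mean rests on 6 DTA- cells.

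At the other end stood macrophage-like cells at 0 and 19.5 CPM in the DTA- libraries and 12.7 and 14.6 CPM in the DTA+ libraries and endothelium-like cells at 12.7 and 36.9 CPM in the DTA- libraries and 13.4 and 22.9 CPM in the DTA+ libraries. A *Dlk1* UMI was present in 3.52% and 8.96% against 4.69% and 4.35% of endothelium-like cells (DTA- before DTA+), against 73.7% and 65.3% against 74.4% and 75.8% of general prepuce-like cells, whose median depths were 5411 and 4085 against 4987 and 5029 UMIs. Free RNA in the droplets can give such low shares, so the highest endothelium-like share, 8.96% at a median depth of 2562.5 UMIs, serves as background. The DTA- cells of cluster 9 lay below it with 8.15% and 7.17%, at 5015.5 and 3800 UMIs, and are read as background. Their DTA+ counterparts had 26.03% and 14.5% at 3722 and 3636 UMIs. Cluster 5 had 19.3% and 14.7% against 9.12% and 9.56%, at 5061 and 4178 against 3276 and 3460 UMIs. Thinned to 1000 UMIs a cell, the shares were 6.50% and 4.48% against 3.38% and 3.19% in cluster 5 and 1.48% and 2.26% against 11.1% and 4.44% in cluster 9, beside 5.22% in the endothelium-like cells of DTA- replicate 2. The endothelium-like cells had 0.704% in DTA- replicate 1 and 1.56% and 0% in the DTA+ libraries. Both DTA+ libraries of clusters 5 and 9 lay above these DTA+ shares. At equal depth only DTA- replicate 1 of cluster 5 and DTA+ replicate 1 of cluster 9 lay above the highest share, 5.22%. Taking that highest share as background for both genotypes, neither the size nor the direction of the difference is read in either cluster.

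**Figure D3:**
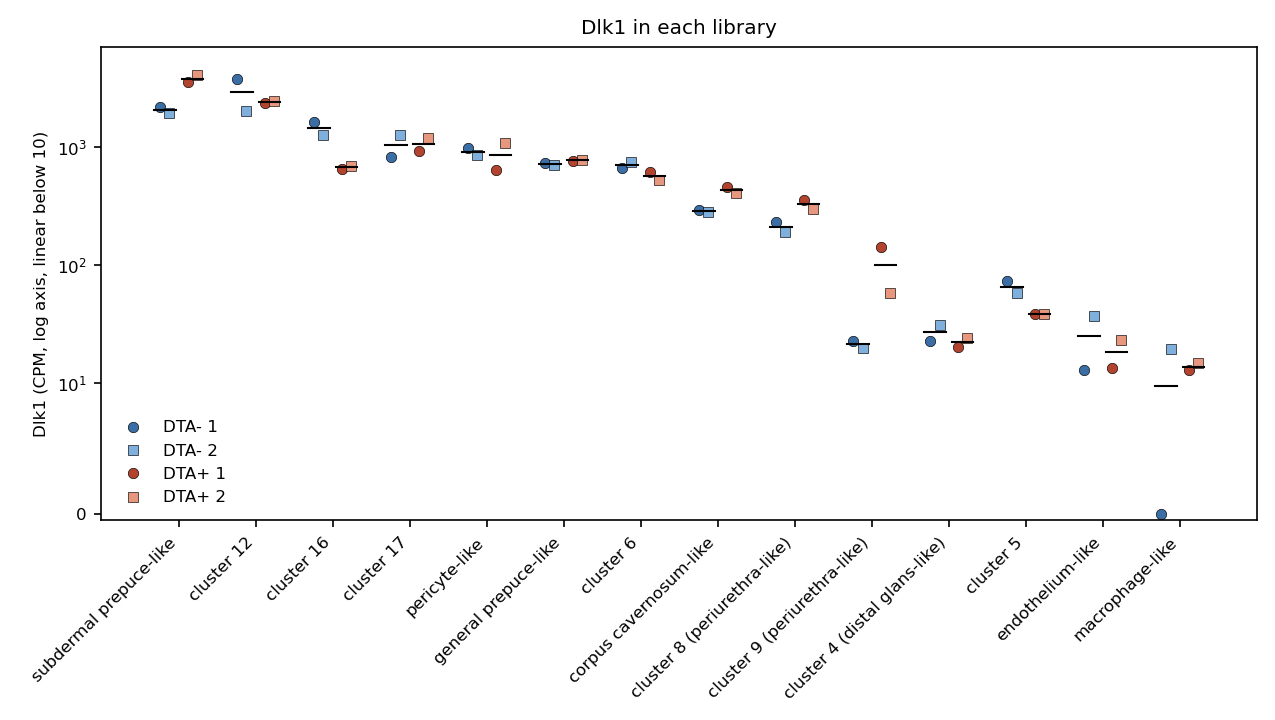
*Dlk1* level (CPM, logarithmic axis that is linear below 10) in each library for 14 cell populations, DTA- in blue and DTA+ in red, circles for replicate 1 and squares for replicate 2, with a bar at the mean of each genotype. The points run from 4055 CPM in the subdermal prepuce-like cluster to 19.5 CPM or less in macrophage-like cells, and in cluster 9 the DTA- points at 22.6 and 19.6 CPM lie below both DTA+ points.

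Between genotypes the *Dlk1* level differed in both directions. In corpus cavernosum-like cells it was at 293 and 282 CPM in the DTA- libraries and 459 and 406 CPM in the DTA+ libraries (log2 fold change 0.48 ± 0.14 SE), without overlap. The 6 general prepuce markers there summed to 1251 and 1336 CPM in the DTA- libraries and 1980.4 and 1916 CPM in the DTA+ libraries. In the periurethra-like cells it was at 136 and 112 CPM in the DTA- libraries and 221 and 180.0 CPM in the DTA+ libraries (0.63 ± 0.16 SE), again without overlap. Split by cluster this was 229 and 191 against 354 and 296 CPM in cluster 8 and 22.6 and 19.6 against 142 and 57.8 CPM in cluster 9, where the DTA- level is read as background. General prepuce markers were higher in both DTA+ libraries of cluster 9 too, at 356 and 333 CPM in the DTA- libraries and 1040.0 and 609 CPM in the DTA+ libraries, and *Dlk1* is itself high in general prepuce-like cells. The 8 subdermal prepuce markers, whose cells are the named ones with the highest *Dlk1*, summed to 217 and 283 CPM in the DTA- libraries and 458 and 286 CPM in the DTA+ libraries in periurethra-like cells. In corpus cavernosum-like cells, where 2 of them were at 0, they summed to 43.02 and 55.9 against 62.9 and 70.8 CPM. In cluster 8 they summed to 243 and 267 CPM in the DTA- libraries and 419.7 and 278 CPM in the DTA+ libraries. All 3 sums were higher in both DTA+ libraries, in periurethra-like cells only by 286 against 283 CPM for the nearest libraries. In cluster 9, where 1 of the 8 was at 0, the sum was 185 and 302 against 481 and 294 CPM, an overlap. The part of these markers in these results was not tested. In cluster 5, led by *Coch*, *Meox2* and *Wif1*, the order was the reverse, with 72.9 and 57.7 against 38.5 and 38.1 CPM, near background in DTA+, while the general prepuce markers there summed to 979.5 and 1121 CPM in the DTA- libraries and 1551 and 1302 CPM in the DTA+ libraries. Cluster 6 had 665 and 743 against 608 and 518 CPM (-0.36 ± 0.13 SE). General prepuce-like cells had 722 and 706 against 753 and 778 CPM (0.03 ± 0.14 SE). Epithelium-like cells had 35.2 and 126 against 19.3 and 14.7 CPM, where the 126 CPM came from 45 UMIs in 8 cells. With cells thinned to equal depth, their shares with a *Dlk1* UMI were 1.83% and 2.13% against 1.32% and 1.08%. All lay below the 5.22% of the endothelium-like cells of DTA- replicate 2, so no fold change is given for epithelium-like cells. Of the 17 populations, both DTA+ libraries lay above both DTA- libraries in 4 and below them in 3. Over the pairs of all genes the shares were 24.9% and 18.8%.

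Where *Dlk1* was highest, the cells of the genotypes were in different clusters. Cluster 11 had 2156 and 1932 against 3515 and 4055 CPM and cluster 12 3765 and 2018 against 2325 and 2431 CPM, DTA- before DTA+, and *Dlk1* was itself among the variable genes that made the clusters. Merged, with 346 and 847 DTA- cells and 309 and 657 DTA+ cells, these clusters had 2547 and 1933 against 2435 and 2456 CPM, a log2 fold change of 0.08 (SE 0.12). When the cells were clustered without the Notch pathway genes, the subdermal prepuce-like population held 323 and 888 against 312 and 330 cells and had 2126 and 1953 against 2477 and 2144 CPM, a log2 fold change of 0.18 (SE 0.11). In the merged clusters the genotypes overlapped, and in the population clustered without those genes the gap between the lowest DTA+ and the highest DTA- library was small beside the gap between the DTA- libraries. Over the 17 tested populations the DTA- level of *Dlk1* was most closely followed by Kcne4 (r = 0.90), B830012L14Rik (r = 0.88), Cd248 (r = 0.87), Agtr2 (r = 0.84) and Tlcd1 (r = 0.84). Clusters 11, 12 and 16, where *Dlk1* was highest, and the smooth muscle-like cells were not among these populations. The genes include *Cd248*, known from perivascular and stromal fibroblasts, and *Agtr2*, a receptor for angiotensin.

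Of the canonical ligands *Jag1* was the broadest. It was highest in cluster 13, whose leading genes include the Wnt-pathway genes *Wnt10a* and *Notum*, with 411 and 455 CPM in the DTA- libraries and 406 and 417 CPM in the DTA+ libraries, where the groups overlapped. The distal glans-like cells as a whole had 143 and 181 against 168 and 183 CPM (log2 fold change 0.09 ± 0.14 SE), and of their clusters, cluster 15 had 274 and 351 against 259 and 279 CPM. Cluster 4 had 196 and 232 against 298 and 344 CPM without overlap, a log2 fold change of 0.55 ± 0.13 SE. In cluster 9 *Jag1* was at 98.8 and 107 CPM in the DTA- libraries and 22.5 and 62.2 CPM in the DTA+ libraries (-1.27 ± 0.34 SE), lower in both DTA+ libraries, while cluster 8 had 121 and 129.6 against 91.5 and 203 CPM (0.27 ± 0.25 SE), an overlap. Cluster 6 also had less in both DTA+ libraries, at 58.5 and 64.4 against 38.5 and 42.7 CPM (-0.63 ± 0.21 SE).

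*Jag2* and *Dll4* were far narrower. *Dll4*, the ligand that guides tip and stalk cells of growing vessels, was at 57.2 and 71.3 CPM in the DTA- libraries and 103 and 73.7 CPM in the DTA+ libraries in endothelium-like cells (log2 fold change 0.36 ± 0.30 SE), and its DTA- mean was under 1 CPM in every other population. *Jag2* was at 59.4 and 103 CPM in the DTA- libraries and 64.99 and 73.7 CPM in the DTA+ libraries in endothelium-like cells (log2 fold change -0.33 ± 0.31 SE) and 65.7 and 89.3 CPM in the DTA- libraries and 42.05 and 58.7 CPM in the DTA+ libraries in epithelium-like cells (-0.71 ± 0.33 SE), where the groups did not overlap. *Dll1* had only 63 UMIs in DTA- and 66 in DTA+. Its endothelium-like level of 4.24 and 34.4 against 6.72 and 7.62 CPM was led by a single DTA- library, and the general prepuce-like cells had 2.62 and 9.82 against 4.82 and 3.06 CPM (log2 fold change -0.73 ± 0.55 SE). *Dlk2*, the close relative of *Dlk1*, was highest in epithelium-like cells with 30.5 and 16.7 CPM in the DTA- libraries and 15.8 and 17.6 CPM in the DTA+ libraries, an overlap. In the distal glans-like cells, the only ones in which it passed the filter, it had 7.13 and 1.70 against 4.08 and 4.97 CPM (log2 fold change -0.09 ± 0.45 SE).

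The 3 receptors were highest in different populations. *Notch3* was highest in pericyte-like cells at 427 and 352 CPM in the DTA- libraries and 276 and 279 CPM in the DTA+ libraries, lower in both DTA+ libraries (log2 fold change -0.46 ± 0.22 SE), and the population next in order, cluster 17, had a DTA- mean of 41.2 CPM. Both DTA+ libraries were below both DTA- libraries in 5 of 17 populations for *Notch3* (background 18.8% of pairs) and above them in 0 (background 24.9%). Besides the pericytes these were the periurethra-like cells (29.6 and 43.4 against 22.5 and 21.5 CPM, log2 fold change -0.77 ± 0.24 SE), cluster 6 (18.9 and 14.1 against 7.36 and 10.5 CPM, -0.91 ± 0.36 SE), cluster 0 and cluster 13. In cluster 8 the level was 32.3 and 52.8 against 18.3 and 20.7 CPM (-1.11 ± 0.31 SE).

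*Notch1* was highest in endothelium-like cells (142 and 177 CPM in the DTA- libraries and 139 and 188 CPM in the DTA+ libraries) and neural-like cells (129.8 and 178 CPM in the DTA- libraries and 130.0 and 145 CPM in the DTA+ libraries), followed by pericyte-like and epithelium-like cells, each of which overlapped with the next. In none of these did the genotypes separate, and in endothelium-like cells the log2 fold change was -0.08 ± 0.24 SE. *Notch2* was spread through the mesenchyme, with DTA- means of 95.7 ± 36.2 CPM in corpus cavernosum-like cells and 73.8 ± 14.5 CPM in periurethra-like cells. Endothelium-like cells had 12.3 ± 3.54 CPM, the lowest of the tested populations (SD, n = 2 each). It was not confined to mesenchyme, with DTA- means of 80.9 CPM in mast cell-like and 55.6 CPM in macrophage-like cells. In the periurethra-like cells *Notch2* stood at 84.1 and 63.6 CPM in the DTA- libraries and 51.8 and 56.1 CPM in the DTA+ libraries, lower in both DTA+ libraries (log2 fold change -0.51 ± 0.19 SE). Fitted log2 fold changes spanned -0.84 to 0.68 over 16 populations for *Notch1* and -0.51 to 0.47 over 14 for *Notch2*.

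**Figure D4:**
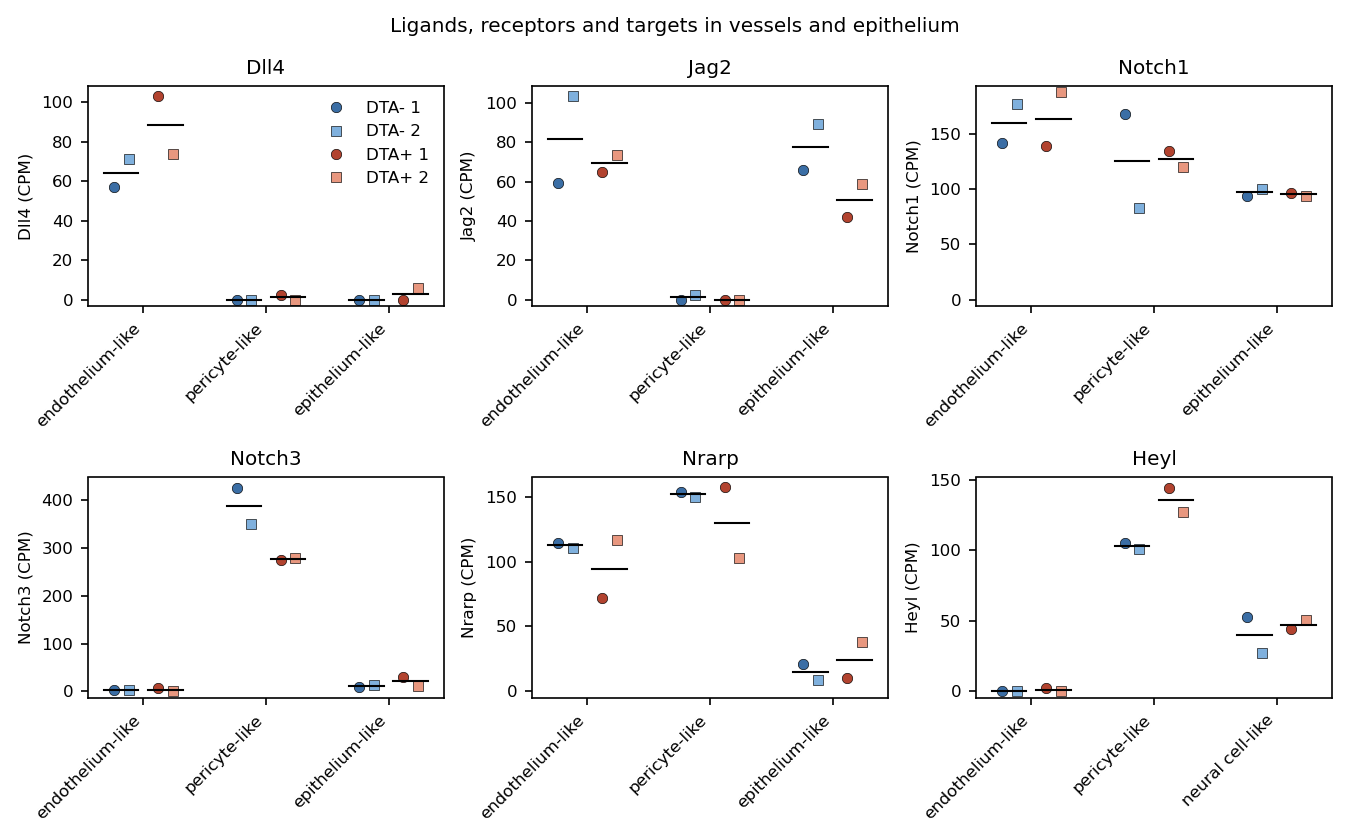
Levels (CPM, linear axes from 0) of the ligands *Dll4* and *Jag2*, the receptors *Notch1* and *Notch3* and the targets *Nrarp* and *Heyl* in each library, for endothelium-like, pericyte-like and epithelium-like cells (neural-like in place of epithelium-like for *Heyl*), colours and symbols as for *Dner*. *Dll4* lies between 57.2 and 103 CPM in endothelium-like cells and at 5.87 CPM or below in the other cells shown, and *Notch3* between 276 and 427 CPM in pericyte-like cells.

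Of the 38 other pathway genes, few differed between genotypes. In edgeR's quasi-likelihood test, adjusted over all genes of a population, 10 of 380 tested gene-population pairs passed (2.63%), 8 higher and 2 lower in DTA+. Over all genes 3.48% of pairs passed, 1.67% higher and 1.81% lower, near the share of the list. The passing pairs came from 4 genes in 6 populations: *Rbpj*, *Maml3* and *Dtx4*, all higher, and *Hes1*, lower. The 5 nuclear factors made up 7 of the higher pairs, of 68 tested. None of the 118 pairs of the 8 genes that cut the receptor, the 34 pairs of the 5 genes that add sugars to it or the 29 pairs of the 4 genes that take up the ligand passed. The median log2 fold change over the pairs was 0.10 for the list and -0.00 for all genes. Over all cells together 0 of the 38 passed, beside 0.488% of all genes. Of the 38, 3 had an unadjusted p below 0.05, and DESeq2 called 2.

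*Rbpj*, which encodes the protein that carries the Notch signal to DNA, rose in 3 populations. In the periurethra-like cells, of whose genes 3.66% were called, it was at 108 and 113 CPM in the DTA- libraries and 329 and 243 CPM in the DTA+ libraries (log2 fold change 1.31, SE 0.17, adjusted p = 0.0022 by edgeR). Of the 16 marker lists, 5 were higher and 3 lower in both DTA+ libraries of these cells. Among the higher ones, the general prepuce markers were at 530.3 and 542 CPM in the DTA- libraries and 1051 and 779 CPM in the DTA+ libraries. The distal glans markers were at 627 and 553 CPM in the DTA- libraries and 725 and 823 CPM in the DTA+ libraries. Within that list *Tac1* (35.1 and 25.96 against 208.8 and 244.6 CPM), *Inhba* and *Isl1* were higher in both DTA+ libraries. *Msx1* (154.9 and 129.3 against 34.02 and 98.8 CPM), *Msx2* and *Dlx5* were lower in both, so the list did not rise as a whole. The part of these marker lists in the *Rbpj* result was not tested. Its clusters had 85.6 and 106 against 173 and 154 CPM (cluster 8) and 135 and 121 against 421 and 337 CPM (cluster 9). It also rose in cluster 0, led by *Sostdc1* and *Wnt16*, at 129 and 162 against 309 and 278 CPM (log2 fold change 0.95, SE 0.17, adjusted p = 0.0059 by edgeR, 2.76% of genes called), and in cluster 5 at 113 and 112 against 152 and 176 CPM (edgeR log2 fold change 0.51, SE 0.16, adjusted p = 0.046, 9.09% called). The cluster 0 call was lost without DTA+ replicate 1 (edgeR adjusted p = 0.079), and the cluster 5 call in 8 of 15 other settings (adjusted p up to 0.37 without DTA+ replicate 2). Both DTA+ libraries lay above both DTA- libraries in 13 of 17 populations and below them in 0 (24.9% and 18.8% of the pairs of all genes), and the populations are not independent, since they come from the same libraries. Over all cells the level was 98.1 and 118 against 185 and 166 CPM, which did not pass (edgeR log2 fold change 0.63, SE 0.13, adjusted p = 0.11). *Rbpj* has the annotated pseudogenes *Rbpj-ps1* and *Rbpj-ps3*, so its counts are uncertain where reads could be split.

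*Maml3*, a Mastermind coactivator of the same complex, rose in 4 populations: corpus cavernosum-like cells at 27.04 and 31.01 against 78.8 and 69.7 CPM (edgeR log2 fold change 1.24, SE 0.19, adjusted p = 0.00034, 9.42% of genes called), distal glans-like cells at 44.6 and 41.9 against 71.1 and 65.1 CPM (edgeR log2 fold change 0.62, SE 0.14, adjusted p = 0.026, 4.71% called), cluster 5 at 17.4 and 20.7 against 40.02 and 31.3 CPM (edgeR log2 fold change 0.90, SE 0.25, adjusted p = 0.026) and cluster 6 at 21.5 and 26 against 46.6 and 42.7 CPM (edgeR log2 fold change 0.88, SE 0.23, adjusted p = 0.017, 12.6% called). Both DTA+ libraries lay above both DTA- libraries in 10 of 17 populations and below them in 0. Over the pairs of all genes that passed the filter the shares were 24.9% and 18.8%. *Maml3* passed the filter in 15 populations, and the populations are not independent, since they come from the same libraries. The last 3 calls were each lost in 4 or 5 of 15 other settings, among them leaving out DTA- replicate 1 (edgeR adjusted p 0.067 to 0.071) or DTA+ replicate 1 (0.11 to 0.37), while the corpus cavernosum-like call was kept in all. The annotation places 11 other gene models on the same strand within *Maml3*, so part of these counts may belong to overlapping transcripts. *Dtx4*, which encodes a Deltex ubiquitin ligase acting on Notch, rose in cluster 5 from 2.84 and 0.962 CPM to 7.90 and 7.48 CPM (edgeR log2 fold change 1.91, SE 0.56, adjusted p = 0.035). This call was not kept in 5 of 13 other settings. DTA- replicate 2 lay below a floor of 3 counts (1.44 CPM), so the size is approximate. *Dtx4* can have passed the filter on low counts only through the DTA+ libraries, so nothing is read from this call.

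*Hes1*, the repressor most often used as a read-out of Notch activity, fell in 2 populations. In corpus cavernosum-like cells it was at 56.1 and 55.1 CPM in the DTA- libraries and 28.2 and 9.75 CPM in the DTA+ libraries (edgeR log2 fold change -1.67, SE 0.28, adjusted p = 0.00082), with -2.59 without DTA+ replicate 1 and -1.11 without DTA+ replicate 2, and DESeq2 gave no adjusted p for it there. In cluster 6 it was at 98.01 and 110.2 CPM in the DTA- libraries and 35.2 and 47.99 CPM in the DTA+ libraries (edgeR log2 fold change -1.34, SE 0.20, adjusted p = 0.00019). With no upper UMI limit the cluster 6 difference shrank to -0.43 (edgeR adjusted p = 0.22). Of the 16 marker lists, 5 were lower and 3 higher in both DTA+ libraries of the corpus cavernosum-like cells, and 4 and 4 in cluster 6. In both populations the 8 smooth muscle markers were lower in DTA+ as well, at 128 and 108 against 87.1 and 65.8 CPM and 239 and 240.2 against 111 and 98.6 CPM summed. No marker was at 0 in every library. Smooth muscle-like cells themselves, of which the DTA+ libraries held 30 and 10, had 13.3 and 5.91 against 0 and 0 CPM of *Hes1*. A floor of 3 counts per library was 21.1 and 67.4 CPM in these DTA+ cells, above both DTA- values, so the 0 levels cannot be told from them. The part of the smooth muscle markers in the result was not tested. Cluster 7 of the distal glans went the other way, with 460.0 and 281 against 601 and 763 CPM (edgeR log2 fold change 0.88, SE 0.20, adjusted p = 0.016, 3.32% called). The distal glans-like cells as a whole did not pass (edgeR log2 fold change 0.39, SE 0.14, adjusted p = 0.12). Their clusters 1, 4 and 15 did not pass either (log2 fold changes 0.06, 0.01 and -0.52). In the periurethra-like cells *Hes1* had 243 and 255 against 36.6 and 161 CPM, below in both DTA+ libraries, and did not pass (edgeR log2 fold change -1.33, SE 0.44, adjusted p = 0.15).

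The targets *Hey1*, *Heyl* and *Nrarp* did not pass in any of the 17 populations. *Hey1* was at 25.8 and 28.01 CPM in the DTA- libraries and 37.8 and 33.5 CPM in the DTA+ libraries in distal glans-like cells (edgeR log2 fold change 0.37, SE 0.16, adjusted p = 0.2) and at 6.81 and 8.95 against 1.57 and 3.64 CPM in the periurethra-like cells (edgeR log2 fold change -1.50, SE 0.48, adjusted p = 0.14). *Heyl* was highest in pericyte-like cells, with 105 and 101 against 144 and 127 CPM (edgeR log2 fold change 0.41, SE 0.27, adjusted p = 0.998). Of all genes 0.0217% were called in pericyte-like, 0.0177% in endothelium-like and 0.675% in general prepuce-like cells. *Nrarp*, a target that feeds back on the receptor, was measured in pericyte-like cells at 154 and 149.9 against 157 and 103 CPM (edgeR log2 fold change -0.20, SE 0.28, adjusted p = 0.998) and in endothelium-like cells at 114 and 111 against 71.7 and 117 CPM (edgeR log2 fold change -0.39, SE 0.28, adjusted p = 0.85). *Hes5*, whose upstream stretch is printed with that of *Dner*, is named after its values were seen. It was highest in general prepuce-like cells, at 6.82 and 25.9 against 1.45 and 17.2 CPM (edgeR log2 fold change -1.40, SE 0.74, adjusted p = 0.86), an overlap. At 2 libraries a genotype a miss does not show that a gene was alike in both.

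**Figure D5:**
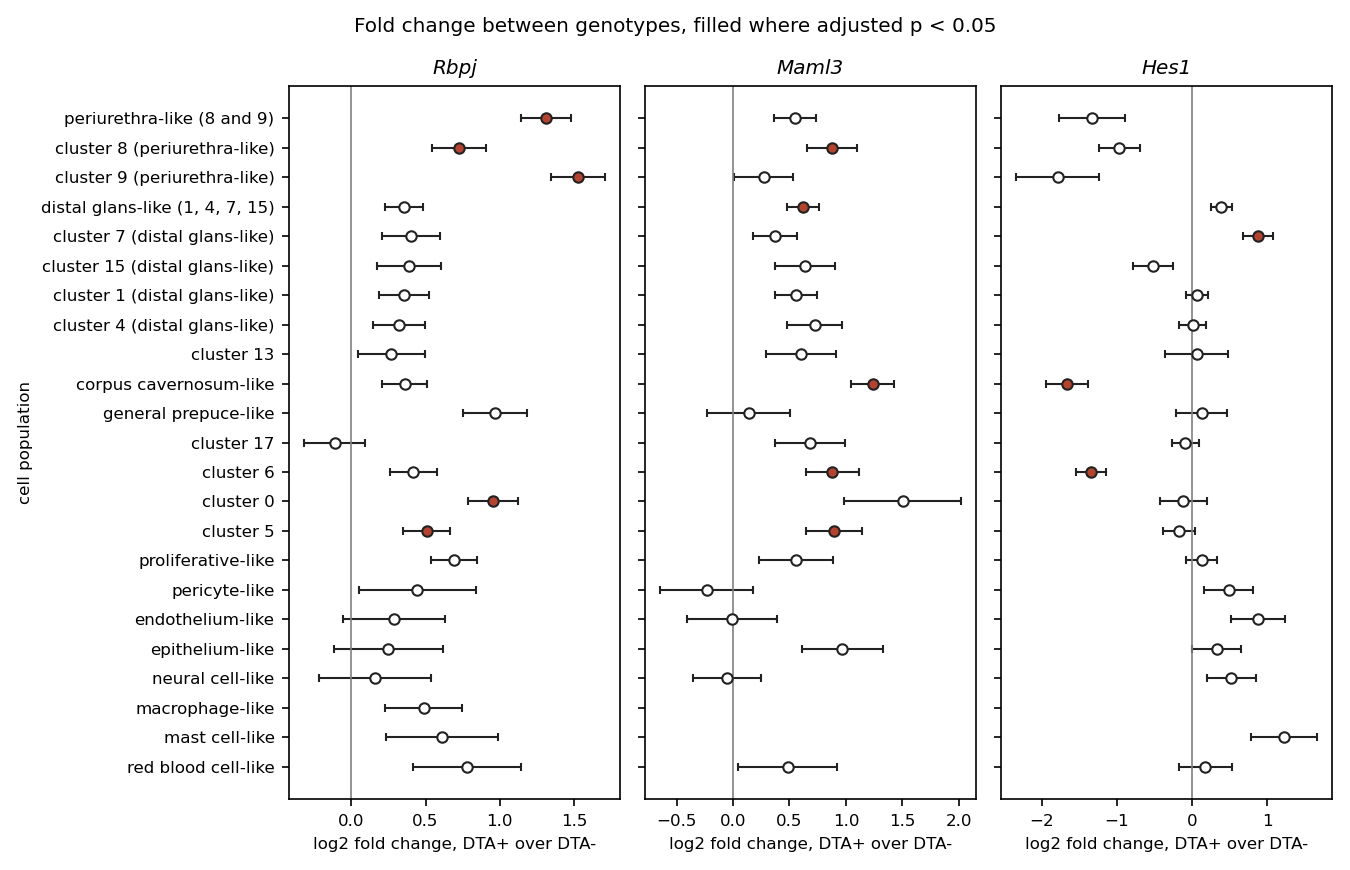
Log2 fold change of *Rbpj*, *Maml3* and *Hes1* between DTA+ and DTA- (points, with bars of 1 SE from edgeR's quasi-likelihood fit) in each tested population and in the clusters of the periurethra-like and distal glans-like cells, filled where the adjusted p was below 0.05. *Rbpj* lies right of 0 in all rows but cluster 17 (-0.11), and *Hes1* runs from -1.79 in cluster 9 to 1.22 in mast cell-like cells.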

How the data were processed

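Droplet libraries of penises at embryonic day 16.5 were aligned by the authors to mm10 with a tdTomato sequence added, by Cell Ranger (version 4.0.0 in the submitters' processing notes; the study's methods name another version), and deposited as raw UMI counts per gene and cell; no other unit was used. A cell was kept if its total lay above 1000 and below 7500 UMIs, if mitochondrial and *Hba* transcripts each made up no more than 25% of it, and *Hbb* transcripts no more than 50%. They were clustered in Seurat 5.3.0 (R 4.3.3; 2000 variable genes, 30 principal components, resolution 0.8). The variable genes included *Dner*, *Dlk1*, *Jag1*, *Dll1*, *Dll4*, *Hes1*, *Hes5*, *Heyl* and *Nrarp*, so their levels are not independent of the clusters. A cluster was named when at least 3 markers were enriched; the thresholds were set after the data had been seen, the names are not the authors' labels, and values may differ from the study's for that reason. Scanpy 1.11.5's Scrublet called at most 1 doublet a library and was taken as having failed, so none were removed.

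Counts were summed per library and population and fitted with genotype as the only term by the two-sided quasi-likelihood test of edgeR 4.0.16, after filterByExpr and TMM scaling, with Benjamini-Hochberg adjustment over all genes of a population. The standard error was the log2 fold change over the square root of F. The fits were tested on simulated data. The members and lists were chosen with earlier results of these data known. Named genes were the 10 members, list genes past the threshold (at most 3 a direction and population), *Hes1*, *Hey1*, *Heyl*, *Nrarp* and the 5 genes most like *Dner* and *Dlk1*; markers and *Hes5* were named after their values were seen. Alternatives covered normalization, test (DESeq2 1.42.0), filter, replicate block, each library left out, cell limits, clustering, depth and doublets. Replicates were distinct libraries.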

Additional observations from a re-analysis of the deposited data

Results flagged for a closer look

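Fitted fold changes of *Dlk1* between genotypes had opposite signs in different cells. Every DTA+ library was above every DTA- library in corpus cavernosum-like cells (log2 fold change 0.48) and in cluster 9 of the periurethra-like cells (2.18), and below in cluster 5 (-0.80). In the last 2 the lower level is at or near background, so the size of the difference cannot be read from these fitted values. With cells thinned to equal depth, 1.48% and 2.26% of the DTA- cells of cluster 9 had a *Dlk1* UMI. The DTA- endothelium-like cells had 0.704% and 5.22%, and the 5.22% served as background. The DTA+ cells of cluster 5 had 3.38% and 3.19%, below that share but above the 1.56% and 0% of DTA+ endothelium-like cells. In the higher groups, DTA+ replicate 2 of cluster 9 (4.44%) and DTA- replicate 2 of cluster 5 (4.48%) lay below the 5.22% as well. At that background no direction is read from clusters 9 and 5. The difference between corpus cavernosum-like cells and clusters 9 and 5 was not tested.

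Fitted fold changes of *Hes1* also had opposite signs. Every DTA+ library was below every DTA- library in corpus cavernosum-like cells (log2 fold change -1.67), in their main cluster 2 (-1.68) and in cluster 6 (-1.34), and above in cluster 7 of the distal glans-like cells (0.88). The distal glans-like cells as a whole (0.39) and their clusters 1, 4 and 15 did not pass. The difference between these populations was not tested.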

How the results depend on the processing

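No called value changed direction under any alternative run. For *Dner* in distal glans-like cells the log2 fold change was -2.95 with no upper UMI limit. It was -3.17 in cluster 1 alone and -3.94 in cluster 15 alone, both clusters chosen after seeing the data. In DTA+ replicate 1 these clusters held 0 and 1 *Dner* UMIs, so both sizes are approximate. In the distal glans-like cells the log2 fold change ran from -2.61 to -1.38 with each library left out. With each library left out it ran from -5.27 to -4.28 for *Dner* in periurethra-like cells, from -3.01 to -1.86 for *Dner* over all cells, from 0.41 to 0.54 for *Dlk1* in corpus cavernosum-like cells and from -0.24 to 0.11 for *Dlk1* over all cells. *Dlk1* in corpus cavernosum-like cells was 0.35 with no upper UMI limit. The 10 calls among the other pathway genes became 16 with no filter on low counts, 5 with DESeq2, 6 with cells thinned to 1000 UMIs and 5 to 13 with each library left out (5 without DTA+ replicate 1). Over all cells the count of 0 became 2 with the likelihood ratio test, 2 with no filter, 2 with DESeq2 and 0 with each library left out. The cause was not tested.

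Same-numbered libraries deviated in opposite ways (correlation -0.33 over all cells and below 0 in 16 of 17 populations). With 2 libraries a genotype this cannot decide whether a number marks a shared litter or day, and the labels do not say. With the replicate block 11 pathway pairs were called per population and 1 gene over all cells, and *Dner* in periurethra-like cells was at -4.95. With the numbers crossed, an alternative added after seeing the data, 14 pairs and 2 genes were called. Of the 147 alternative values for called pathway genes 118 kept their call and 29 lost it, and of 1320 for the 10 genes 1183 stayed within 1 SD. Depth limits *Dll1*, *Dll4*, *Dlk2* and *Jag2*, which had 60 to 165 UMIs in the DTA- libraries.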
